A study of Mus musculus with 7 samples.

Results

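Translation factors are the proteins that start, carry on and recycle protein synthesis on the ribosome. The set described here holds 43 mouse genes of 55364 in the count table: 40 initiation factors, elongation factors and their direct regulators, and the translation-associated genes Tpt1, Naca and Btf3. The genes were matched by name from a list that was chosen with earlier results of these data known. The counts of their 3′ regions were summed per gene. All 43 were found. A filter on low counts left 42 of them among 9854 tested genes, and Eif4ebp1 did not pass it.

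The libraries came from CD4 T cells, sorted as CD45+, CD3+ and CD4+ cells out of lung tumours grown orthotopically in C57BL/6 mice more than 8 weeks old. All mice carried the floxed allele I-AbF/F, where I-Ab encodes a chain of MHC class II, and all received tamoxifen. The 5 Control libraries came from I-AbF/F mice without Cre. The 2 Cre libraries came from I-AbF/F Col1a2-cre mice, in which the Col1a2 promoter, active in fibroblasts, drives Cre, so the deletion was not aimed at the sorted cells and their own counts do not check it. The comparison asks how translation factor transcripts of T cells in the tumour differ between mice with and without this Cre. Mice were matched for gender and age, and the libraries of a group were biological replicates, per the series design.

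Initiation begins when eIF2 brings the initiator tRNA to the small ribosomal subunit, held there with eIF1, eIF1A, eIF3 and eIF5. The complex eIF4F, built from the cap-binding protein eIF4E, the scaffold eIF4G and the helicase eIF4A, recruits this subunit to a capped mRNA, and the 4E-BP proteins block it by binding eIF4E. Elongation then uses eEF1A to deliver tRNAs and eEF2 to move the ribosome along, and T cells raise their rate of protein synthesis when they are activated.

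Each library counted reads at the 3′ ends of transcripts, with 1484655 to 1724346 counts across Control and 1929899 and 1449739 in Cre. Values are given as CPM, counts scaled to the same library total. The 12 CD4 T cell markers were all detected, and summed to 5674 to 6966 CPM across Control and 6887 and 5750 CPM in Cre. Of the 10 macrophage and monocyte markers, 6 were at 0 in both Cre libraries. Among these 6, Adgre1 and C1qc were at 0 in Control too. C1qb and Csf1r had counts only in Control replicate 1 (9 and 2), and Fcgr1 only in Control replicate 5 (11). The sum of the 10 markers was 14.5 to 70.7 CPM in Control replicates 1 to 4, 6696 CPM in Control replicate 5, where Apoe alone had 10867 counts, and 2.59 and 5.52 CPM in Cre. For the 9 fibroblast markers the sum was 220 to 828 CPM across Control and to 346 and 60.7 CPM in Cre, with Pdgfrb at 0 throughout. Of the tested genes, 1.14% to 16.1% had a count of 0 in a Control library, against 25.01% and 33.6% in the Cre libraries. The part that these differences have in the results below was not tested.

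The annotated 3′ ends of 9 genes are shown because the counted regions sit on them and the results turn on these genes. Each is the last 30 bases of the transcript in GENCODE M21 (GRCm38, the same assembly as mm10), written 5′ to 3′ on the transcript's strand. Capitals mark the letters of the polyadenylation signal AATAAA or of its common variant ATTAAA where the sense strand holds them. Whether a marked stretch serves as a signal was not tested.
Eef2 (chr10:81182469-81182498, plus strand): ggagtAATAAActacagtggttgatccaca
Eef1a1 (chr9:78478449-78478478, minus strand): accATTAAAacaagtttaatgagaaatctg
Eif2b1 (chr5:124570213-124570242, minus strand): gagtgctgggATTAAAgatgtgtaccatga
Eif4a1 (chr11:69666936-69666965, minus strand): attctgAATAAAattacttggaaactgcct
Eif4a2 (chr16:23114088-23114117, plus strand): gccaagcacttgtctacttcctacaaaagg
Eif4e (chr3:138559667-138559696, plus strand): aggattggaATTAAAtgcgttcactaccga
Eif4ebp1 (chr8:27276645-27276674, plus strand): cATTAAAaaaggtagcatgaagtcaattgc
Eif4g3 (chr4:138208479-138208508, plus strand): aatggagaatttttagtgtaagggttggtt
Eif6 (chr2:155819832-155819861, minus strand): cccATTAAAggactgcctcccaccatcctc

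Of the 42 members with such a transcript end, 24 (57.1%) held 1 of the signals in these 30 bases, against 62.8% of 21830 protein-coding genes. AATAAA stood in 17 (40.5%, against 51.2%) and ATTAAA in 8 (19.0%, against 13.2%). The windows of Eif4a2 and Eif4g3 held neither, which says only that these letters are not in that window.

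No translation factor passed the test between Cre and Control. With edgeR's quasi-likelihood test and Benjamini-Hochberg adjustment over the 9854 genes at 0.05, 0 of 42 members were called higher, where 0% of all tested genes were, and 0 of 42 were called lower, where 0.0101% of all tested genes were, a single gene. At an unadjusted p under 0.05, edgeR had 1 member higher (2.38%, against 1.41% of all tested genes). This was Eif2b1, which passed the filter on low counts through the Cre libraries. By the same measure edgeR had 4 lower (9.52%, against 10.2%), which were Eif3a, Eif3i, Eif4g3 and Eif6. Run on the same counts, DESeq2 called 0 members higher (0.355% of all genes) and 2 lower, Eif4g3 and Eif6 (4.76%, against 6.16% of all genes). At an unadjusted p under 0.05, DESeq2 had 1 member higher (2.38%, against 2.2% of all genes) and 6 lower (14.3%, against 15.5%). From the same counts, limma voom called 0 members in either direction (0.0304% of all genes higher, 0% lower), and its unadjusted p was under 0.05 for 1 member higher (2.38%, against 3.57% of all genes) and 2 lower (4.76%, against 7.9%). The authors' deposited table, also made with DESeq2, had the same pair below an FDR of 0.05 among the 43 members, against 3.64% of its 18008 genes called lower and 0.211% called higher. None of the members' shares stands far from the share over all genes. In bulk samples, fewer cells of a type and less RNA per cell cannot be told apart.

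The fitted differences were evenly split, with 21 members higher in Cre and 21 lower, which is 50% each, while 39.9% of all tested genes were fitted higher and 60.1% lower. The members' median log2 fold change was -0.01 (quartiles -0.53 and 0.33), beside -0.39 over all tested genes (quartiles -2.42 and 0.53). Other scalings moved the median of all genes by 0.10 up (DESeq2 size factors) or down (upper-quartile factors). They moved the members' median with it, to 0.10 and -0.11, so its sign turns with the scaling. Eef1g, Eif4a3 and Eif5 change sign between these scalings, and the other 39 tested members do not. By level, the shares fitted lower can be set beside those of all genes, with no test of a difference. Of the 11 members averaging 300 CPM or more over the libraries, 8 were fitted higher, with a median log2 fold change of 0.18 (0.00 over all genes at that level), and 27.3% were lower (49.9% of all genes there). Of the 16 members from 100 to 300 CPM, 8 were higher and 8 lower (50% lower, against 51.8%). Of the 10 members from 30 to 100 CPM, 7 were lower (70%, against 52.9%), with a median of -0.88 (-0.11 over all genes there). Among the 5 tested members under 30 CPM, 3 were lower (60%, against 68.1%), with a median of -0.27 (-1.53 over all genes there).

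**Figure D1:**
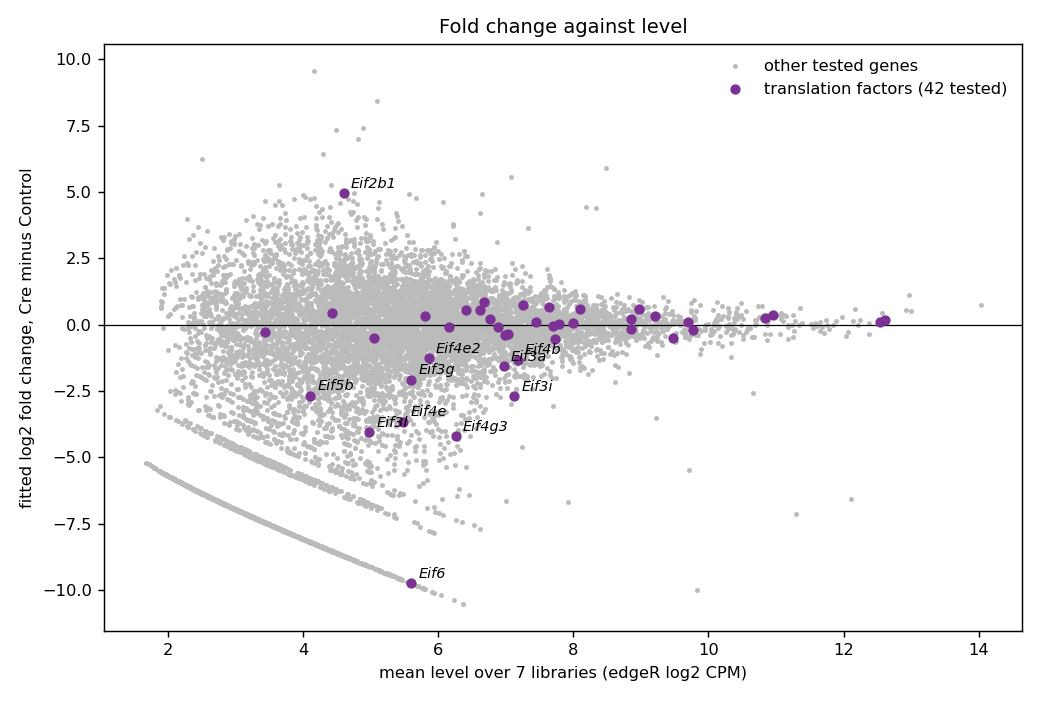
Each point is 1 tested gene, with the mean log2 CPM over the libraries on the horizontal axis and the edgeR log2 fold change of Cre over Control on the vertical axis. Members are drawn over all 9854 tested genes, and those with the most counts lie close to 0 while the named ones with fewer counts lie farther from it.

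Together the 43 genes held 24222, 22975, 24247, 24610 and 19052 CPM in Control replicates 1 to 5, or 23021 ± 2304 CPM (SD, n = 5). In Cre they held 26420 and 23400 CPM, or 24910 ± 2135 CPM (SD, n = 2). One Cre library was above every Control library, and the other was within their range. Eef1a1, Eef1b2, Eef2 and Tpt1 took 64.0% to 69.3% of the members' counts across Control and 68.3% and 70.7% in Cre.

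Eef2, the translocase of elongation (ENSMUSG00000034994, mm10 chr10:81176631-81182498, plus strand), had 8094, 6139, 4749, 6400.1 and 4297 CPM in Control replicates 1 to 5 and 6622 and 6947 CPM in Cre. Both Cre libraries were inside the Control range, and the fitted log2 fold change, with its SE, was 0.18 ± 0.31 (edgeR adjusted p = 0.884).

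Eef1a1, which encodes the factor that carries aminoacyl-tRNAs to the ribosome, had 1433, 1640.1, 2572, 1808 and 1143 CPM across Control and 1909 and 2156 CPM in Cre. The Cre libraries again lay within the Control range, with a log2 fold change of 0.25 ± 0.33 (edgeR adjusted p = 0.842). The eEF1B exchange factor subunits Eef1b2, Eef1d and Eef1g, which recharge eEF1A with GTP, had fitted log2 fold changes of 0.37, 0.12 and 0.03. The 4 eEF1 genes summed to 4535 ± 577 CPM in Control (SD, n = 5) and 5432 ± 873 CPM in Cre (SD, n = 2).

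**Figure D2:**
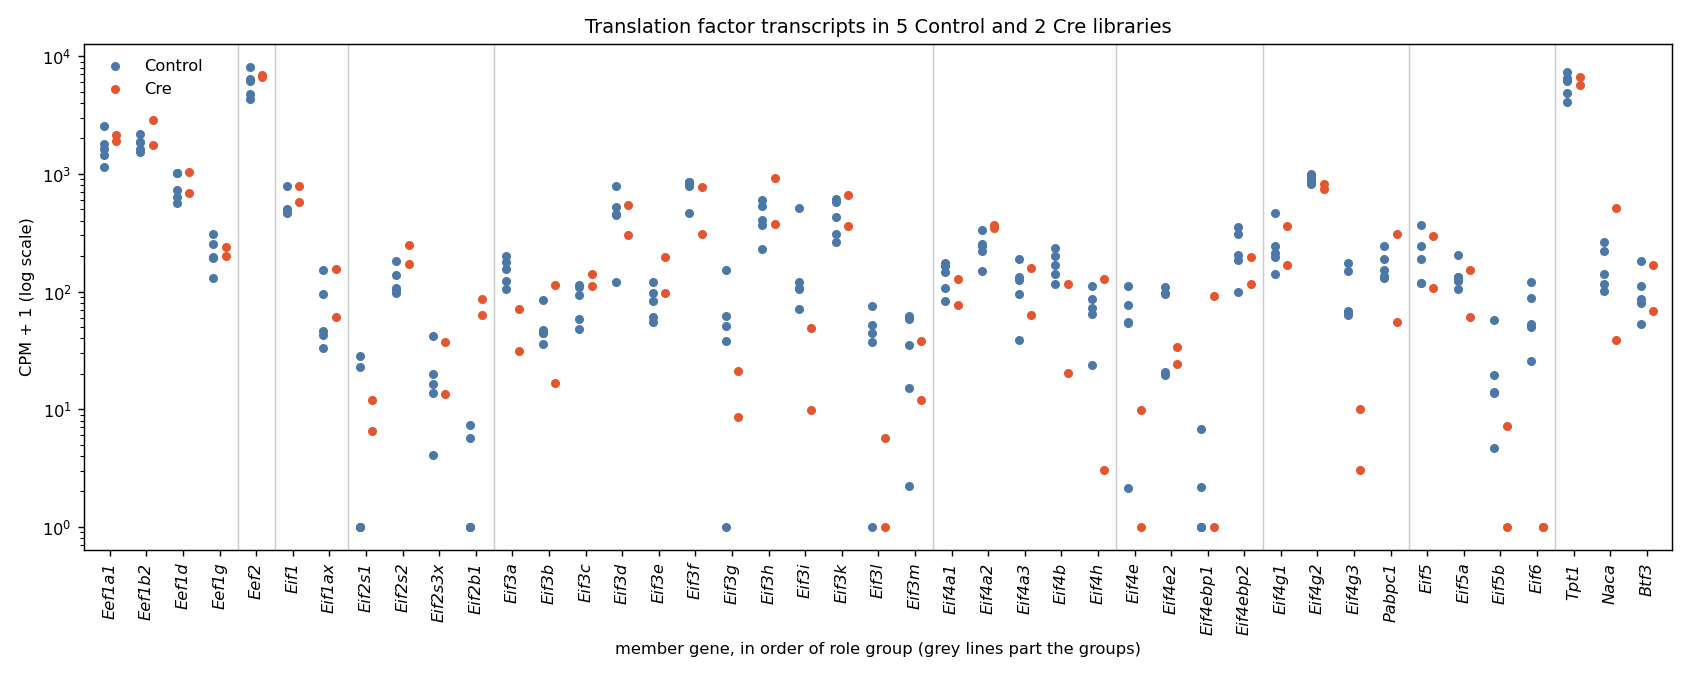
CPM plus 1 of each of the 43 members in each of the 7 libraries on a log axis, with Control and Cre libraries as separate points and members in order of role. Members with many counts, such as Eef1a1 (1143 to 2572 CPM across Control), spread less in proportion than members with few counts, some of which are at 0 in part of the Control libraries.

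Among the factors that select the start codon, Eif1 and Eif1ax had fitted log2 fold changes of 0.33 and 0.56, with Cre within the Control range or overlapping it. The eIF2 group holds the subunits of eIF2, Eif2s1, Eif2s2 and Eif2s3x, and Eif2b1, the alpha subunit of the exchange factor eIF2B, through which cells sense phosphorylated eIF2. Its 4 genes summed to 227, 143, 135, 115 and 153 CPM across Control and to 281 and 354 CPM in Cre. Both Cre libraries were above every Control library for this sum, which was not tested. The separation rests on Eif2b1, since without it the sums were 109 to 222 CPM across Control and 219 and 268 CPM in Cre, which overlapped.

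Eif2b1 (ENSMUSG00000029388, mm10 chr5:124570213-124579131, minus strand) had 8, 0, 0, 11 and 0 counts in Control replicates 1 to 5 and 120 and 125 counts in Cre. The groups did not overlap, as in 2 of 42 members where both Cre libraries were above every Control library (4.76%, against 4.05% of all tested genes). Among Control libraries, only replicate 4 reached the filter's minimum count of 10. Eif2b1 thus entered the test through the Cre libraries, where it is high, so its lack of overlap and its p-values are not independent of the filter. Its level was 2.22 ± 3.10 CPM in Control (SD, n = 5) against 74.2 ± 17.001 CPM in Cre (SD, n = 2). The log2 fold change was 4.96 ± 1.86 (SE), with an edgeR adjusted p of 0.422 and a DESeq2 adjusted p of 0.0736. All its counts came from 1 region of 1226 bases at the gene's 3′ end, 977 of them 3′ UTR, and the region runs past the end of the sequence shown for Eif2b1.

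Eif2s1, the eIF2 alpha subunit whose phosphorylation slows initiation in the integrated stress response, was thinly counted. It had 37, 0, 44, 0 and 0 counts across Control and 21 and 8 in Cre. The groups overlapped, and the log2 fold change of -0.27 ± 2.45 (edgeR adjusted p = 0.978) allows a large difference in either direction. Eif2s2, the beta subunit, had a log2 fold change of 0.75 ± 0.51 (edgeR adjusted p = 0.556), and Eif2s3x, the gamma subunit, one of 0.43.

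The scaffold eIF3 was represented by 12 subunits, of which 5 were fitted higher and 7 lower, and their summed level was 2773 ± 633 CPM in Control (SD, n = 5) and 2573 ± 674 CPM in Cre (SD, n = 2). The subunits' fitted differences thus pointed both ways. Their log2 fold changes ran from -4.04 in Eif3l to 0.84 in Eif3e.

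Eif3a, the largest core subunit, had 122, 104, 200.5, 178 and 155 CPM across Control and 70.5 and 30.4 CPM in Cre. Each Cre library was below the lowest Control library, with a fitted log2 fold change of -1.57 ± 0.65 (edgeR adjusted p = 0.422; DESeq2 adjusted p = 0.134).

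Eif3i, a WD-repeat subunit, had 119.8, 70.7, 509, 103 and 106 CPM across Control and 8.81 and 47.6 CPM in Cre. Control replicate 3 stood far above the other Control libraries, and both Cre libraries were below all of them. Fitted on the log2 scale, the difference was -2.69 ± 1.01 (edgeR adjusted p = 0.422; DESeq2 adjusted p = 0.061).

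Eif3e, a subunit of the part of eIF3 that resembles the proteasome lid, had 81.3, 53.9, 121, 60.3 and 95.2 CPM across Control and 195 and 96.6 CPM in Cre. Only the first Cre library was above the Control range, and the log2 fold change was 0.84 ± 0.64 (edgeR adjusted p = 0.621). The other 9 eIF3 subunits overlapped between the groups. Of these, Eif3l had 0 to 73.8 CPM across Control and 4.66 and 0 CPM in Cre, with a log2 fold change of -4.04 ± 2.31 (edgeR adjusted p = 0.455).

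**Figure D3:**
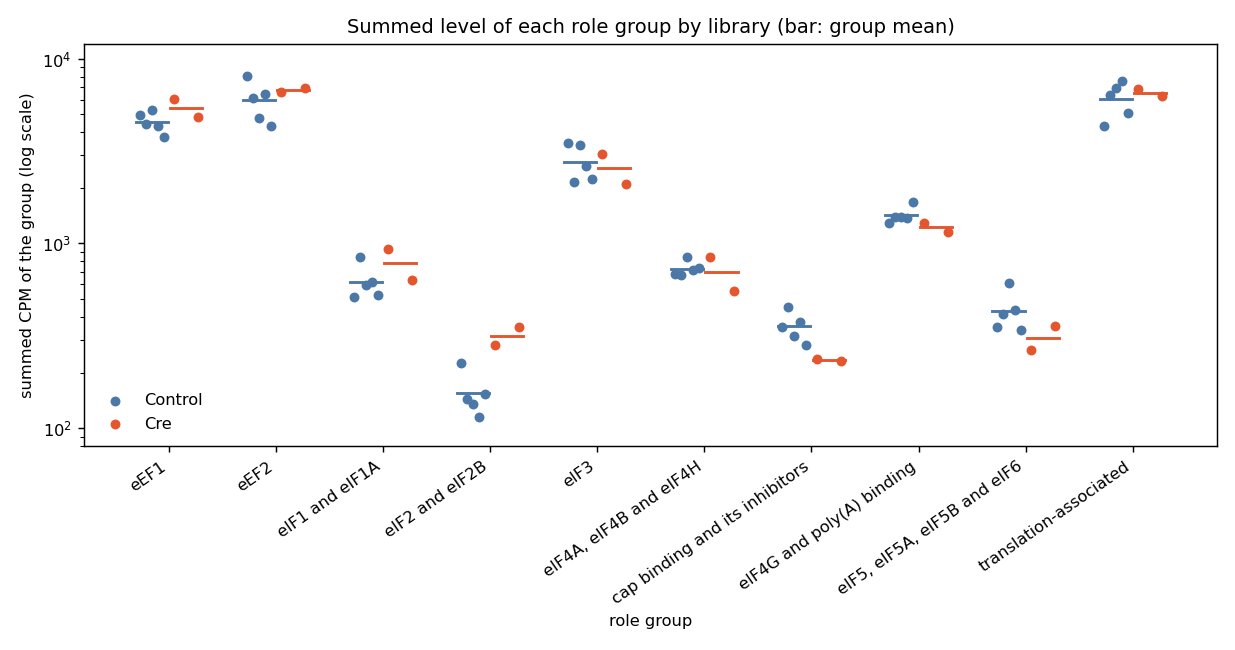
Summed CPM of each role group in each library on a log axis, with Control and Cre libraries as separate points. The eIF2 and eIF2B sum is higher in both Cre libraries (281 and 354 CPM) than in any Control library, though not without Eif2b1, and the sum of cap-binding proteins and their inhibitors is lower (238 and 229.7 CPM), though not without Eif4e, Eif4e2 or Eif4ebp2.

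The helicase eIF4A unwinds mRNA leaders and is encoded by the paralogs Eif4a1 and Eif4a2, whose difference was not tested. Eif4a2 (ENSMUSG00000022884, mm10 chr16:23107444-23114136, plus strand) had 149, 240.5, 219, 254 and 332 CPM across Control and 366 and 344 CPM in Cre. They exceeded every Control library, by a narrow margin over Control replicate 5, with a log2 fold change of 0.59 ± 0.40 (edgeR adjusted p = 0.545).

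Eif4a1 had 106, 174, 146, 81.8 and 163 CPM across Control and 75.7 and 127 CPM in Cre, which overlapped, with a log2 fold change of -0.40 ± 0.59 (edgeR adjusted p = 0.862). Within a library, Eif4a1 made up 23.8%, 32.4%, 29.3%, 19.1% and 30.6% of the counts of Eif4a1, Eif4a2 and Eif4a3 across Control and 12.6% and 23.8% in Cre. The share of Eif4a2 was 33.6% to 62.3% across Control and 61.0% and 64.6% in Cre. Both shares overlapped between the groups. Eif4a3, which belongs to the exon junction complex, had the remainder.

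Eif4b and Eif4h, which stimulate eIF4A, were fitted lower by different amounts. Eif4b had 168, 116, 234, 199 and 141 CPM across Control and 115 and 19.3 CPM in Cre. The first Cre library was just below the lowest Control library and the second far below it, with a log2 fold change of -1.33 ± 0.72 (edgeR adjusted p = 0.437). With the TMM scaling factors of the edgeR fit (1.01 in Control replicate 2, 0.977 in Cre replicate 1), the first Cre library was above Control replicate 2. Eif4h had 128 and 2.07 CPM in the Cre libraries, around a Control range of 22.9 to 111 CPM.

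Eif4e, the cap-binding subunit of eIF4F, had 90, 80, 181, 2 and 124 counts across Control and 17 and 0 in Cre. Control replicate 4 was as low as the Cre libraries, so the groups overlapped, with a log2 fold change of -3.67 ± 1.95 (edgeR adjusted p = 0.433; DESeq2 adjusted p = 0.129). Its paralog Eif4e2, which binds caps without joining eIF4G, had 18.6 to 109 CPM across Control and 32.6 and 23.5 CPM in Cre.

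The 4E-BP genes encode repressors of eIF4E that mTORC1 switches off by phosphorylation. Eif4ebp1 (ENSMUSG00000031490, mm10 chr8:27260329-27276674, plus strand) had 2, 0, 0, 10 and 0 counts across Control and 0 and 131 counts in Cre. Its counts came almost wholly from Cre replicate 2, where it reached 90.4 CPM, and it was not tested. Eif4ebp2 had 205, 306, 184, 350.3 and 98.3 CPM across Control and 197 and 116 CPM in Cre, with a log2 fold change of -0.54 ± 0.56 (edgeR adjusted p = 0.763). Eif4ebp2 thus held 98.4% to 100% of the 4E-BP counts across Control and 100% and 56.2% in Cre. Summed with Eif4e and Eif4e2, the group held 354, 455, 315, 376 and 283 CPM across Control and 238 and 229.7 CPM in Cre, which is under the lowest Control library. No test was made of this sum, and leaving out Eif4e, Eif4e2 or Eif4ebp2 made the groups overlap.

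The eIF4G scaffolds bind eIF4E and eIF4A and hold the cap-binding complex together. Their paralog Eif4g3 (ENSMUSG00000028760, mm10 chr4:137993022-138208508, plus strand) had 67.6, 65.3, 173, 62.1 and 149 CPM across Control and 2.07 and 8.97 CPM in Cre, which are 4 and 13 counts. The Cre libraries were far below the lowest Control library. The log2 fold change was -4.21 ± 1.13 (SE), with an edgeR adjusted p of 0.323 and a DESeq2 adjusted p of 0.000731. In the authors' deposited table its log2 fold change was -3.97, with an FDR of 0.000437. The region at the 3′ end held 93.8% of its counts and spans 2354 bases of 3′ UTR.

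Eif4g1, the other scaffold of eIF4F, had 214, 140.1, 195, 245 and 464 CPM across Control and 166 and 356 CPM in Cre. The groups overlapped, with a log2 fold change of 0.06 ± 0.51 (edgeR adjusted p = 0.977). Eif4g2, a relative that lacks the eIF4E-binding site, was the most even, at 854, 996, 886, 934 and 823 CPM in Control (coefficient of variation 7.57%) and 816 and 740.1 CPM in Cre. On library totals, both Cre libraries were below every Control library, by little. With the TMM scaling factors of the edgeR fit (1.06 in Control replicate 5, 0.977 in Cre replicate 1), Cre replicate 1 was above Control replicate 5. The log2 fold change was -0.20 ± 0.30 (edgeR adjusted p = 0.867).

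Of the counts of the 3 eIF4G genes, Eif4g3 held 5.96%, 5.44%, 13.8%, 5.00% and 10.4% across Control and 0.211% and 0.811% in Cre. The shares of Eif4g1 (11.7% to 32.3% in Control, 16.9% and 32.2% in Cre) and Eif4g2 (57.3% to 82.9% in Control, 82.9% and 67.0% in Cre) overlapped. Pabpc1, the poly(A) binding protein that ties eIF4G to the mRNA's tail, had 150.1, 189, 129.8, 135 and 241 CPM across Control and 305 and 53.8 CPM in Cre. The Cre libraries lay on either side of the Control range, and the log2 fold change was 0.12 ± 0.62 (edgeR adjusted p = 0.969).

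**Figure D4:**
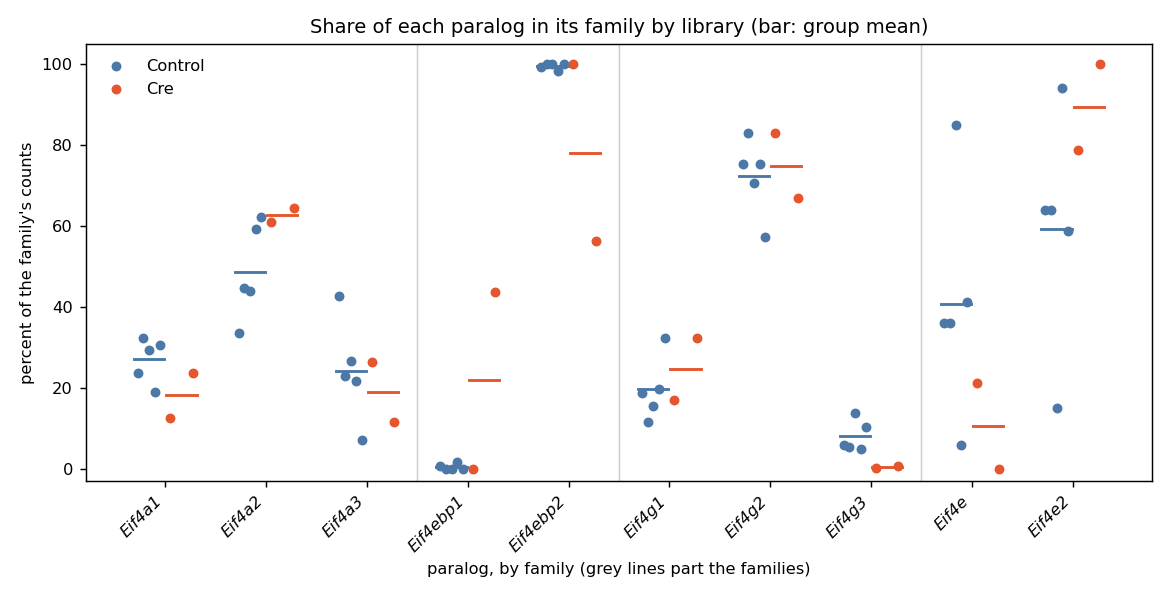
Percent of each paralog family's counts held by each gene in each library, for eIF4A, eIF4G, the cap-binding proteins and the 4E-BPs. Eif4g3 holds 5.00% to 13.8% of the eIF4G counts in Control and under 1% in both Cre libraries, and Eif4ebp1 appears only in Cre replicate 2 beyond 1.63%.

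Eif6, which keeps the large ribosomal subunit from joining too early, was the only member without a count in both Cre libraries. Such a lack of counts in Cre was found in 2.38% of the tested members and in 13.7% of all tested genes. Eif6 (ENSMUSG00000027613, mm10 chr2:155819832-155826925, minus strand) had 82, 176, 40, 90 and 141 counts across Control and 0 and 0 in Cre. The Control level was 66.1 ± 36.7 CPM (SD, n = 5). A count of 0 allows up to 3 counts over both Cre libraries, or 0.888 CPM. The Control mean was 74.5-fold above this limit, which covers no more than counting error and not the spread between libraries. The edgeR adjusted p was 0.218 and the DESeq2 adjusted p was 7.61e-05. The authors' deposited table gives a log2 fold change of -6.65 and an FDR of 4.85e-05. The same pattern, counts in every Control library and none in Cre, was found in 1 of 42 members (2.38%) and in 338 of the 9854 tested genes (3.43%). Of its counts, all in Control, 74.3% were in the last region, 24.95% in an inner one, and 4 counts in another.

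Eif5a, the hypusine-bearing factor that relieves stalled ribosomes, had 103, 123, 202, 132 and 133 CPM across Control and 152 and 60.01 CPM in Cre. The groups overlapped, with a log2 fold change of -0.36 ± 0.60 (edgeR adjusted p = 0.884). Eif5, which triggers GTP hydrolysis by eIF2, and Eif5b, which joins the subunits, had log2 fold changes of -0.05 and -2.68, and both overlapped. Eif5b had 3.69 to 56.6 CPM across Control and 6.22 and 0 CPM in Cre. All 4 genes of this group were fitted lower in Cre, Eif5 only under some scalings, and none passed the edgeR test.

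By CPM on library totals, 6 of 42 members had both Cre libraries below every Control library (14.3%, against 10.9% of all tested genes). These were Eif3a, Eif3i, Eif4b, Eif4g2, Eif4g3 and Eif6. Of them, Eif4b and Eif4g2 overlapped under the TMM scaling of the edgeR fit. The shares under that scaling were not worked out. Eif2b1, which passed the filter through the Cre libraries, and Eif4a2 were above. By CPM on library totals, the groups overlapped in 34 members.

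Tpt1, which encodes the growth-related protein TCTP, had 4087, 6137, 6526, 7316 and 4904 CPM across Control and 6641 and 5678 CPM in Cre. The groups overlapped, and the log2 fold change was 0.10 ± 0.28 (edgeR adjusted p = 0.940). Naca and Btf3, the subunits of the nascent polypeptide-associated complex at the ribosome exit, had log2 fold changes of 0.68 and 0.22. Naca had 37.8 and 508 CPM in the Cre libraries, on either side of the Control range of 101 to 265 CPM.

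The spread between replicates differed with the level of a gene, and its part in the lack of calls was not tested. In Control, the coefficient of variation was under 30% in 14 of 43 members and over 60% in 12. Its median was 25.8% for members at 300 CPM or more, and 31.9%, 60.7% and 98.7% for those from 100 to 300, from 30 to 100 and under 30 CPM. Over all tested genes at these levels, in the same order, it was 31.9%, 42.2%, 63.8% and 104.6%. The Cre libraries differed from each other by more than 2-fold in 2 of the 11 members at 300 CPM or more (Eif3f and Eif3h). They did so in 18 of the 32 others, and 5 more had a Cre library at 0. The same counts were not made over all genes.

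The 43 genes have 187 counted regions, of which 101 held counts, and 27 genes had 95% or more of their counts in 1 region. The largest region of 42 members ended 249 bases past the annotated gene end, and that of Eef1d lay inside the gene. In 11 members, 2 or more regions held at least 10% of the gene's counts each. The main regions of Eef1d, 2 bases apart, held 4459 and 4861 counts, and those of Eif3d, 224 bases apart, held 2690 and 2641. Whether the same reads were counted in both regions was not tested, so the summed levels of such genes are uncertain to that extent. Eif3f spread over several regions. Its last region held 42.7% to 77.4% of the counts across Control and 65.7% and 96.2% in Cre.

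Used regions of 6 members overlapped a region of another gene, and in several of these overlaps the counts were nearly the same. The last region of Tpt1 had 41649 counts over the libraries and that of Snora31, a small nucleolar RNA (snoRNA) gene within Tpt1, had 41951. The last region of Eef1a1 had 20530 counts and the miRNA gene Gm26377 had 19962. An inner region of Eef1b2 had 2438 counts and the snoRNA gene Gm26457 had 2430. The counts were not equal for the last region of Eef1b2, which held 84.9% of the gene's counts, 19430, against 10387 for the overlapping snoRNA gene Snora41. An inner region of Eif3c had 424 counts, as did the snRNA gene Gm24596. Eif4a2 and Eif4g1 overlapped small RNA genes in regions of at most 70 counts. Reads in the shared stretches cannot be told apart in the file. Tpt1 also has a processed pseudogene, Tpt1-ps3, with 7401, 7361, 5387, 5347 and 3832 counts across Control and 6591 and 6716 in Cre, so the level of Tpt1 is uncertain to that extent.

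**Figure D5:**
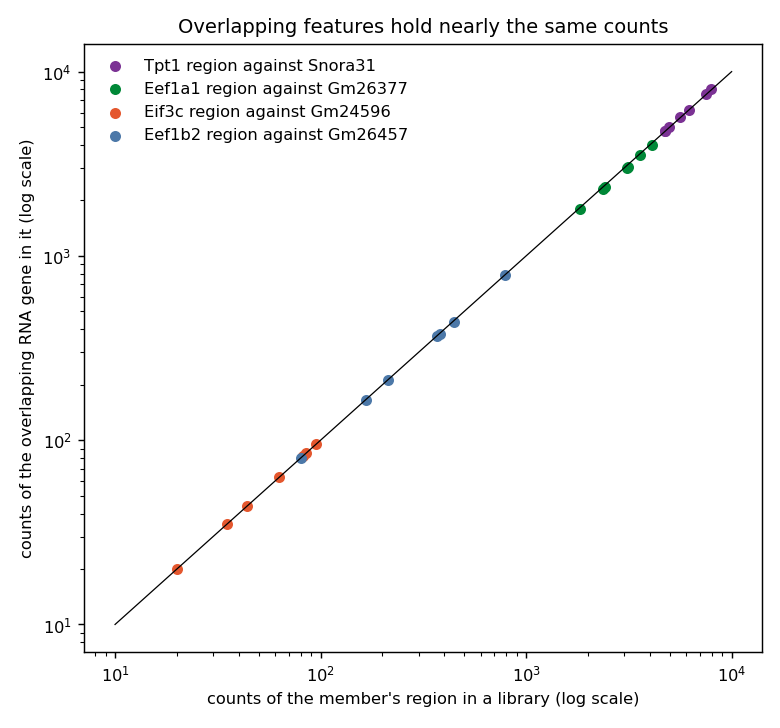
Counts of a member's region against counts of the small RNA gene's region that overlaps it, per library, on log axes. Points for the last regions of Tpt1 and Eef1a1 and for an inner region each of Eef1b2 and Eif3c lie on or close to the line of equal counts in all 7 libraries, and the unequal overlap of Eef1b2 with Snora41 is not drawn.

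Genes of neighbouring pathways were read from the same fit. Of 35 tested other cytosolic translation factors, edgeR called 0 in either direction, with 6 at an unadjusted p under 0.05, of which 5 were lower in Cre (14.3%, against 10.2% of all tested genes), and a median log2 fold change of -0.55. DESeq2 called 3 of them lower (8.57%, against 6.16% of all genes), among them Larp4, which binds poly(A) and protects mRNA tails, and Paip1, which binds Pabpc1. Larp4 had 8, 33, 17, 53 and 35 counts in Control and Paip1 had 19, 10, 127, 2 and 44, and both were at 0 in Cre, as were 5 of the 35 genes (14.3%) and 13.7% of all tested genes. Mknk1, a kinase of eIF4E, had 26, 0, 120, 3 and 34 counts across Control and 0 in both Cre libraries (DESeq2 adjusted p = 0.0519).

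The list of cytosolic tRNA synthetase genes also held Aimp1 and Aimp2, which encode scaffold proteins of the synthetase complex and not synthetases. Of the 21 tested genes of this list, edgeR called 0. At an unadjusted p under 0.05, Eprs and Rars were higher (9.52% of the list, against 1.41% of all tested genes) and Qars was lower (4.76%, against 10.2%). The list summed to 909, 816, 1344, 1151 and 909 CPM across Control and to 1406 and 1595 CPM in Cre. Neither Cre sum fell in the Control range. Without Eprs and Rars the sums were 814 to 1237 CPM across Control and 1067 and 1157 CPM in Cre, which overlapped. This pair was named for small p-values in the same data, and no other genes of the list were left out in turn. Eprs, the glutamyl-prolyl-tRNA synthetase, had 34, 3, 66, 77 and 59 counts across Control and 430 and 193 in Cre, with a log2 fold change of 2.65 ± 0.94 (edgeR adjusted p = 0.402; DESeq2 adjusted p = 0.0689). Rars, the arginyl-tRNA synthetase, had 82, 0, 108, 7 and 55 counts across Control and 223 and 441 in Cre, with a log2 fold change of 2.76 ± 1.25 (edgeR adjusted p = 0.427). Both Cre libraries were above every Control library for each of them, as for 4 of the 21 genes (19.0%) and 4.05% of all tested genes. Qars, the glutaminyl-tRNA synthetase, had 37, 158, 328, 68 and 10 counts across Control and 15 and 2 in Cre, and DESeq2 called it alone lower (4.76%, against 6.16% of all genes; DESeq2 adjusted p = 0.0397).

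Of 12 tested genes of the integrated stress response, which acts through eIF2 phosphorylation, edgeR called 0, and 3 were lower at an unadjusted p under 0.05 (25%, against 10.2% of all tested genes). These were Psat1, a serine synthesis enzyme, Trib3, a pseudokinase, and Eif2ak3, the kinase PERK, all at 0 in both Cre libraries (25% of the list, against 13.7% of all tested genes). Psat1 had 0 to 49.8 CPM, Trib3 0.614 to 45.8 CPM and Eif2ak3 0 to 55.3 CPM in Control. DESeq2 called 1 gene lower, Psat1 (8.33%, against 6.16% of all genes; DESeq2 adjusted p = 0.0473). The list's sum was 1795 ± 306 CPM in Control (SD, n = 5) and 1891 ± 8.72 CPM in Cre (SD, n = 2). Of the 10 mitochondrial translation factors, 5 were tested. Neither edgeR nor DESeq2 called any of them, and 0 had an unadjusted edgeR p under 0.05.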

How the data were processed

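The authors deposited raw counts per 3′ region of each gene, as whole numbers for 116000 regions in 7 libraries, per the file headers. HISAT2 2.1.0, FastQC 0.11.8, DESeq2 and the build mm10 are named in the submitters' processing notes, while the tool that counted, whether it used strand, and the annotation were not given in the sources used here. RNA was extracted with NucleoSpin and made into libraries with NEB Next Ultra reagents, per the labels' protocols. A second deposited table holds the authors' p-values and FDR from DESeq2, a fold as a ratio of normalized values, the log2 of that fold, and the GC content of each gene in percent, which was not used, per the file headers.

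Counts were summed over the regions of a gene, and CPM is counts scaled to the library's total over all genes. Groups were read from the sample titles. Genes were compared with edgeR 4.0.16 (R 4.3.3) by its quasi-likelihood F-test, two-sided, with TMM, robust dispersion and no term but group. The default filterByExpr settings (minimum count 10, minimum total 15) were used, and p-values were adjusted by Benjamini-Hochberg over 9854 genes at 0.05. The edgeR test was also run on simulated counts, with changes in both directions and the same dispersion in both groups. The checks covered the sign of calls and false calls, and say nothing of how readily a changed member would be called here. P-values set the group difference against the spread between these libraries. In edgeR that spread is moderated over all genes and taken as the same in both groups. A log2 fold change is Cre over Control, and its SE comes from the F statistic. DESeq2 1.42.0 and limma voom 3.58.1 were alternatives, as were other scalings, filters, regions, each library left out and the replicate number as a block. No pair of libraries agreed within sampling noise. A count of 0 allows up to 3 counts, a limit that covers no more than counting error, because PCR reads lacking molecular identifiers are not independent.

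Members described with every library were those at an unadjusted edgeR p under 0.05, those whose groups did not overlap, those untested or at 0 in Cre, and 14 fixed by name, and pathway lists gave at most 3 genes each by smallest p. Other members given with values, and sums with genes left out, were added after the data were seen. The members and lists were chosen with earlier results of these data known. Transcript ends came from GENCODE M21, matched by gene ID, with 42 of 43 members found.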

Additional observations from a re-analysis of the deposited data

Results flagged for a closer look

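In 6 of 43 members, 1 of the 5 Control libraries stood apart from the others, with its gap to the nearest library above Dixon's 95% critical value of 0.71 of the group's range. Chance flags about 1 in 20 groups of normally distributed values, and CPM values with zeros are not such values. The share over all tested genes was not worked out, so no excess among the members can be read from this. Eif1 had 795 CPM in Control replicate 2, the highest of the group. Eif3b, with 83.5 CPM, and Eif5b, with 56.6 CPM, were also highest in that library. Eif3i had 509 CPM in Control replicate 3, and without that library its log2 fold change was -1.81, in place of -2.69, while without Cre replicate 1 it was -1.94 and without Cre replicate 2 it was -4.27. Eif3f was lowest in Control replicate 5, with 468 CPM. Eif4ebp1 had 5.80 CPM in Control replicate 4, which is 10 counts.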

How the results depend on the processing

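No translation factor was called by edgeR under any alternative run with it, while counts over all genes moved. edgeR called 15 genes higher and 28 lower with no filter on low counts (members' median log2 fold change 0.12). With each library left out it called 0 to 8 genes higher and 0 to 149 lower, and 0 members each time. The 8 and 149 were without Cre replicate 1, with a members' median of -0.44. Without Cre replicate 2 the median was 0.21, and edgeR called 1 gene higher and 0 lower. DESeq2 called 35 genes higher and 607 lower and 2 members lower, and limma voom 3 higher and 0 lower.

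DESeq2 with each library left out, chosen after seeing the data, called 22 to 78 genes higher, 402 to 1506 lower, 0 to 1 members higher (Eif2b1, without Control replicate 4) and 2 to 8 members lower. The 8 were without Cre replicate 1, and 4 were called without Control replicate 2. Eif4g3 and Eif6 were called lower each time. In the fits without a Cre library, with either tool, that group has 1 sample, which is assumed to vary like the Control libraries.

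Replicate numbers 1 and 2 occur in both groups with no label that pairs them, and the deviations of same-numbered libraries had correlations of 0.00302 and 0.00202. With the replicate number as a block, edgeR called 0 genes higher and 5 lower and 0 members, with a members' median of -0.28. Only numbers 1 and 2 hold libraries of both groups, so the differences in this fit come from those libraries, and the other Control libraries are alone in their blocks. Under the block the log2 fold changes that turned sign were -0.10 for Eef2, 1.45 for Eif2s1 and -0.43 for Pabpc1. Under limma voom they were 2.21 for Eif2s1 and -0.22 for Pabpc1, and with only the largest region -0.035 for Tpt1. With a library left out, Eif2s1 ran from -0.86 to 0.55, Eif4g1 from -0.51 to 0.50, Pabpc1 from -1.65 to 0.93, Eif5a from -1.21 to 0.22, Eif4b from -3.16 to -0.51, Eif3a from -2.33 to -1.03, Eif3i from -4.27 to -1.81 and Tpt1 from -0.037 to 0.27.

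Paralog shares (Cre minus Control, in percentage points) ran with a library left out from -14.4 to -3.23 for Eif4a1, from -0.441 to 43.4 for Eif4ebp1, from -2.72 to 12.6 for Eif4g1 and from -40.8 to -19.2 for Eif4e. The cause of these changes was not tested. With 2 Cre libraries, each value of thinly counted members rests on few counts.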
